A study of Mus musculus with 6 samples.

Results

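The miR-17-92 and miR-106b-25 clusters are paralogous groups of miRNAs, each cut from a single primary transcript. The 9 members were chosen by name, as the guide-strand probes for mmu-miR-17, mmu-miR-18a, mmu-miR-19a, mmu-miR-20a, mmu-miR-19b and mmu-miR-92a (the 6 of miR-17-92) and for mmu-miR-106b, mmu-miR-93 and mmu-miR-25 (the 3 of miR-106b-25). They are 9 of the 566 mouse miRNA probes of a NanoString panel, an assay that counts single captured molecules by their colour code, with no amplification step. The samples were fresh frozen liver of 3 Apcfl/fl mice, homozygous for a hypomorphic Apc allele and bearing hepatocarcinoma in which the Wnt/β-catenin pathway is active, and of 3 Apc+/+ mice with a healthy, tumour-free liver, all on a C57Bl/6 background. Apc is a component of the complex that destroys β-catenin. The age of the mice is not given in the sources used here, and no Cre transgene is named for these livers. Genotype and tumour go together in these livers, so a difference between the genotypes cannot be told apart from one between tumour and healthy tissue. Whole pieces of tissue were extracted, so that more cells of a type and more RNA per cell cannot be told apart.

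MiRNAs silence mRNAs by pairing with them, mainly through the seed, the bases 2 to 8 counted from the 5′ end of the mature strand. MiR-17-92 is transcribed from its own host gene, is activated by the Myc and E2F transcription factors and is a classic oncogenic cluster that restrains cell cycle inhibitors and the pro-apoptotic factor Bim. MiR-106b-25 lies inside Mcm7, which encodes a subunit of the replicative DNA helicase, and is transcribed along with it. A further paralogue on the X chromosome, miR-106a-363, encodes near-identical miRNAs.

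Sequences and positions were taken from RefSeq on build GRCm38.p6, where 18 of 18 miRNA genes looked up were matched, 9 of them the genes of the members. The 6 hairpins of miR-17-92 span 836 bases at chr14:115043671-115044506 on the plus strand. The 3 hairpins of miR-106b-25 span 498 bases at chr5:138165321-138165818 on the minus strand, and all 3 lie within Mcm7 on the same strand. The 6 hairpins of miR-106a-363 lie at chrX:52741693-52742567 on the minus strand. The tables used here do not separate exons from introns. The mature guide strands are shown because the seed, in capitals, sorts the members into families that cut across both clusters, and because the bases outside it decide which members a probe can separate.
mmu-miR-17: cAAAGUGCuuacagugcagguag
mmu-miR-20a: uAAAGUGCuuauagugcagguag
mmu-miR-106b: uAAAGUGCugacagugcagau
mmu-miR-93: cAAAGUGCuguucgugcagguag
mmu-miR-18a: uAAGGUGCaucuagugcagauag
mmu-miR-19a: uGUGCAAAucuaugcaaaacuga
mmu-miR-19b: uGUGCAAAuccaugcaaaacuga
mmu-miR-92a: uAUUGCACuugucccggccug
mmu-miR-25: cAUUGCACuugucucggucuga

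The seed AAAGUGC was carried by 4 members from both clusters, mmu-miR-17 and mmu-miR-20a of miR-17-92 and mmu-miR-106b and mmu-miR-93 of miR-106b-25. The seed GUGCAAA belonged to mmu-miR-19a and mmu-miR-19b, which differ by U11C alone, with positions counted from 1 at the 5′ end and the first-named sequence given first. The seed AUUGCAC joined mmu-miR-92a of one cluster with mmu-miR-25 of the other, which differ by U1C, C14U and C18U and by 1 more base at the 3′ end of mmu-miR-25. The seed AAGGUGC was that of mmu-miR-18a. Mmu-miR-17 and mmu-miR-20a, neighbours in the family, differ by C1U and C12U.

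The panel did not separate the members from the X-linked paralogue throughout. A single probe is named for mmu-miR-17 and mmu-miR-106a together, and a single probe for mmu-miR-20a and mmu-miR-20b. The sequences of these partners are shown for comparison.
mmu-miR-106a: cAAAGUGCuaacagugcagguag
mmu-miR-20b: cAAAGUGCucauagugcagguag
From mmu-miR-17 to mmu-miR-106a the difference is U10A, and from mmu-miR-20a to mmu-miR-20b the differences are U1C and U10C. The mature mmu-miR-19b and mmu-miR-92a are identical whether cut from chromosome 14 or from the X chromosome, so no probe could tell their source. For miR-17-92, therefore, 4 of the 6 probes read the sum of 2 loci. The 3 probes of miR-106b-25 each named 1 miRNA. None of the 9 passenger-strand names looked up had a probe on the panel.

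The deposited counts, which appear to have been reduced by a constant of each probe's own, summed to between 82942 and 133331 over the mouse miRNAs of a liver. The members held 0.986%, 1.09% and 0.822% of these counts in Apc+/+ mice against 1.61%, 1.13% and 1.56% in Apcfl/fl mice. Background was set in each liver from the 33 probes for viral miRNAs (mean plus 2 SD), between 13.1 and 27.8 counts. The probe for miR-720 alone held 33% of the counts of Apc+/+ liver 3 and 15.7% to 25.7% elsewhere, and counts were scaled by the TMM method of edgeR, which is less sensitive to 1 dominant probe than the total. The summed normalised count of 5 hepatocyte miRNAs was 8253.9 or more in all 6 livers. Most of it was the liver-defining miR-122, and others were much lower, such as miR-802 at 28.49 to 143.5. Whether same-genotype livers came from separate litters or batches is not stated in the sources used here, so that p-values measure the spread between these livers. Counting error here means the square root of the count over the count, and covers the count alone.

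Of the 9 members, 7 lay above the viral probe limit in all 6 livers and passed the minimum mean count of 20, and 2 lay under the limit in all 6 livers. MiR-18a had deposited counts of 1, 1 and 4.67 in Apc+/+ mice against 1.67, 1 and 5.67 in Apcfl/fl mice, with 1 the lowest value that the table holds. MiR-92a had 2.67, 8.67 and 4.67 counts in Apc+/+ mice against 4.67, 6.67 and 1 in Apcfl/fl mice. Neither was measured well enough for a fold change, and at these counts no difference between the genotypes could be detected. Both are cut from the transcript that also gives mmu-miR-17, mmu-miR-19a, mmu-miR-20a and mmu-miR-19b, whose deposited counts ran from 92 to 474.67. Probes differ in how well they capture and, it appears, in a constant already subtracted, so that counts of different probes are not set against each other as amounts of RNA.

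**Figure D1:**
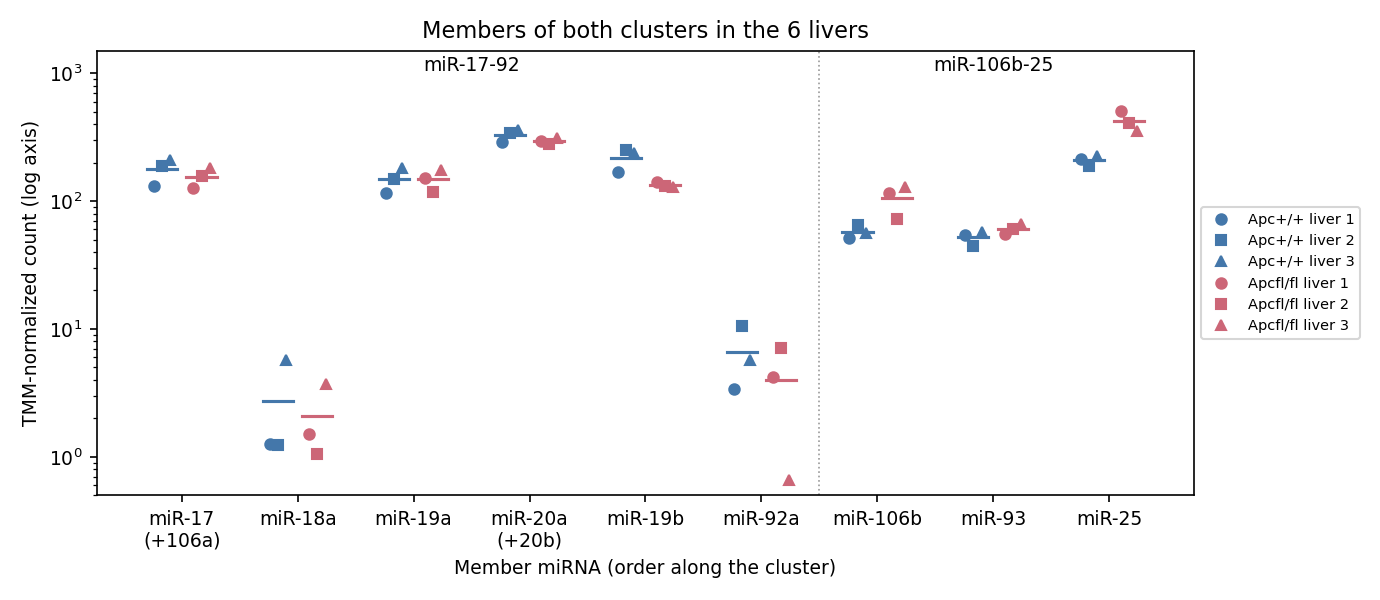
TMM-normalised counts on a log axis for the 9 members, in their order along each cluster; points are single livers (blue Apc+/+, red Apcfl/fl, 3 each) and dashes are means. The 3 Apcfl/fl livers lay above the 3 Apc+/+ livers for miR-106b and miR-25 and below them for miR-19b, while miR-18a and miR-92a lay at background.

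With TMM scaling the fitted changes of the clusters pointed in different directions, although no member passed the adjusted threshold. All 3 tested members of miR-106b-25 had a higher fitted level in Apcfl/fl liver (log2 fold changes 0.22 to 1.01, median 0.88), and 0 of the 4 tested members of miR-17-92 did (-0.71 to 0, median -0.18). The signs in miR-17-92 depended on the scaling: with the total count as library size, which moved the median of all tested miRNAs to 0.45, mmu-miR-17 (0.25), mmu-miR-19a (0.46) and mmu-miR-20a (0.26) were above 0 and 6 of the 7 members were higher. The same signs were found after removal of miR-720 and with no filter on low counts. Over both clusters the median log2 fold change was 0, beside a median of 0.01 over all 174 miRNAs tested, of which 88 were higher and 86 lower. After Benjamini-Hochberg adjustment of edgeR's quasi-likelihood test, 0 of the 7 members had an adjusted p-value under 0.05, as had 0% of all tested miRNAs, and the smallest adjusted p-value of any miRNA was 0.0559. At an unadjusted p-value under 0.05, 2 members were higher, miR-25 and miR-106b, beside 13.8% of all tested miRNAs, and 1 was lower, miR-19b, beside 10.9%. These members also had no overlap between Apcfl/fl and Apc+/+ livers, 2 of 7 higher beside 14.9% of all tested miRNAs and 1 of 7 lower beside 18.4%. With 7 members each one moves a share by a large step, and nothing particular to the clusters is read from these counts. With DESeq2 in place of edgeR, 1 of 7 members, miR-25, was called higher beside 11.5% of all tested miRNAs (20 of 174), and 0 were called lower beside 5.17% (9 of 174).

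MiR-25, the last hairpin of its cluster, differed most between the genotypes among the members. Its deposited counts were 170.33, 154.33 and 184.33 in Apc+/+ mice against 564.33, 382.33 and 543.33 in Apcfl/fl mice. The genotypes were apart before any scaling, with the lowest Apcfl/fl liver above the highest Apc+/+ liver. Deposited counts of any member also carry the depth of each liver, and TMM scaling lowered the Apcfl/fl counts relative to the Apc+/+ counts. Its factors on the library size were 1.04, 0.959 and 0.655 in Apc+/+ against 1.25, 0.988 and 1.24 in Apcfl/fl mice. The normalised counts of miR-25 were 215, 189.5 and 226.4 against 507.6, 405 and 356.7, with means of 210.3 ± 18.9 and 423.1 ± 77.1 (SD, n = 3 each). The 3 Apcfl/fl livers were thus all above the Apc+/+ livers and less alike among themselves, with liver 1 highest and liver 3 lowest. MiR-25 was 2.01-fold higher in Apcfl/fl liver (95% confidence interval 1.4 to 2.89), a log2 fold change of 1.01 with a standard error of 0.22 (unadjusted p = 0.0025, adjusted p = 0.056 in edgeR's test). The two-sided exact permutation test gave p = 0.1, the smallest that 3 mice against 3 allow. The coefficient of variation between livers was 9% in Apc+/+ and 18.2% in Apcfl/fl, against a counting error of 4.21% to 8.05% per liver.

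MiR-106b, the first hairpin of the same transcript, had deposited counts of 41, 53 and 46 in Apc+/+ mice against 129, 69 and 197 in Apcfl/fl mice. After normalisation it had 51.74, 65.06 and 56.5 against 116, 73.08 and 129.3. The genotypes did not overlap on either scale, although Apcfl/fl liver 2 came close to Apc+/+ liver 2. The means were 57.77 ± 6.75 and 106.2 ± 29.4 (SD, n = 3 each), a 1.84-fold higher level in Apcfl/fl liver (95% confidence interval 1.06 to 3.18). The log2 fold change was 0.88 with a standard error of 0.33 (edgeR unadjusted p = 0.034 and adjusted p = 0.16). The exact permutation test, two-sided, gave p = 0.1. With each liver left out of the edgeR fit in turn, the unadjusted p-value was under 0.05 in 1 of 6 fits, without Apcfl/fl liver 2 (unadjusted p-value 0.0062, adjusted p = 0.064), and reached 0.12 without Apcfl/fl liver 3, where the log2 fold change was 0.69.

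MiR-93, the middle hairpin, had the smallest difference of its cluster. Its deposited counts were 43, 36 and 47 in Apc+/+ mice against 62, 57 and 101 in Apcfl/fl mice, without overlap. After normalisation it had 54.27, 44.19 and 57.73 against 55.77, 60.37 and 66.31, so that Apcfl/fl liver 1 fell within the range of the Apc+/+ livers. The means were 52.06 ± 7.03 and 60.82 ± 5.29 (SD, n = 3 each). The log2 fold change of 0.22 (95% confidence interval -0.54 to 0.99, standard error 0.33, edgeR adjusted p = 0.72) was within the spread between mice, and the interval still held a change as large as that of miR-106b. Its counting error, 9.95% to 16.7% per liver, was as large as the variation between livers, 13.5% in Apc+/+ and 8.69% in Apcfl/fl.

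In miR-17-92 the lower member was miR-19b. The deposited counts of miR-19b were 133.67, 205.67 and 192.67 in Apc+/+ mice against 157.67, 123.67 and 197.67 in Apcfl/fl mice, which overlapped. After normalisation they were 168.7, 252.5 and 236.7 against 141.8, 131 and 129.8. On that scale all 3 Apcfl/fl livers lay below the Apc+/+ livers and close together. The means were 219.3 ± 44.5 and 134.2 ± 6.63 (SD, n = 3 each), 0.612 times the Apc+/+ level (95% confidence interval 0.409 to 0.917). The log2 fold change was -0.71 with a standard error of 0.25 (unadjusted p = 0.024, adjusted p = 0.13 in edgeR's test, two-sided exact permutation p = 0.1). The lower level depended on the scaling: with the total count as library size, which moved the median of all tested miRNAs from 0.01 to 0.45, the log2 fold change was -0.28 (unadjusted p = 0.44). It kept an unadjusted p-value under 0.05 in 2 of the 6 fits that left out 1 liver, those without Apc+/+ liver 1 (0.024) and without Apcfl/fl liver 1 (0.041), and had 0.22 without Apc+/+ liver 2.

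MiR-19a, with the same seed, had deposited counts of 92, 121 and 149 in Apc+/+ mice against 169, 112 and 267 in Apcfl/fl mice. Its normalised counts of 116.1, 148.5 and 183 against 152, 118.6 and 175.3 spanned overlapping ranges in the genotypes. The log2 fold change was 0 (95% confidence interval -0.68 to 0.67, standard error 0.28, edgeR adjusted p = 0.99). Mmu-miR-19a has 1 locus among those looked up, whereas the probe for mmu-miR-19b reads products of chromosome 14 and of the X chromosome.

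The other tested members of miR-17-92, which share the AAAGUGC seed with miR-106b and miR-93, are known repressors of the cell cycle inhibitor p21 and of E2F1. The probe for mmu-miR-17 and mmu-miR-106a had normalised counts of 132.1, 189.9 and 210.9 in Apc+/+ mice against 127.4, 157.5 and 182.3 in Apcfl/fl mice. The probe for mmu-miR-20a and mmu-miR-20b had 289.8, 339.6 and 363.2 against 293.9, 279.3 and 311.7. The genotypes overlapped for both probes. The log2 fold changes were -0.19 for mmu-miR-17 (standard error 0.28, 95% confidence interval -0.85 to 0.47) and -0.17 for mmu-miR-20a (standard error 0.19, 95% confidence interval -0.63 to 0.29), with adjusted p-values of 0.72 and 0.64 in edgeR's test. Both signs turned with the total count as library size (0.25 and 0.26), the scaling that moved the median of all tested miRNAs by as much. The probe named for miR-20a varied little between livers, with a coefficient of variation of 11.3% in Apc+/+ and 5.5% in Apcfl/fl liver.

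**Figure D2:**
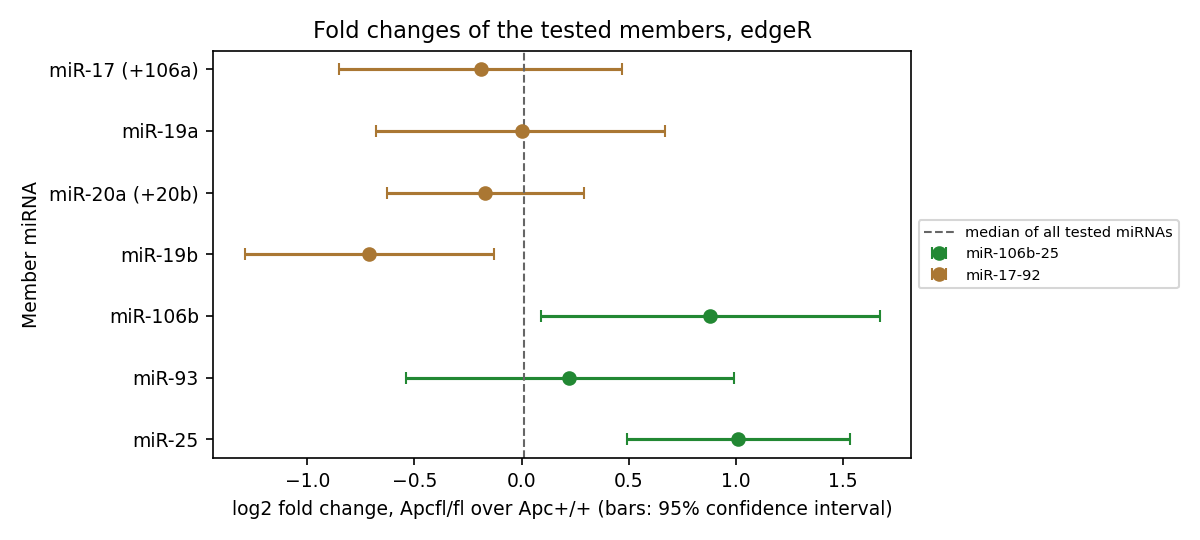
Log2 fold changes of the 7 tested members, Apcfl/fl over Apc+/+ liver, from edgeR's quasi-likelihood fit, with 95% confidence intervals as bars; the dashed line is the median of all 174 tested miRNAs (0.01). The intervals of miR-25 and miR-106b lie above 0, that of miR-19b lies below it, and the other 4 cross it.

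Fitted changes also differed within seed families, differences that were not tested. Of the 4 tested probes with the AAAGUGC seed, the pair from miR-106b-25 had fold changes above 0 and the pair from miR-17-92 below 0, from -0.19 to 0.88 on the log2 scale (median 0.03). The GUGCAAA pair lay at -0.71 and 0. Of the 6 probes with the AUUGCAC seed, 2 were tested: miR-25, and miR-32, which has a locus of its own on chromosome 4. Its sequence is shown because it holds the seed of miR-25 in an otherwise different strand.
mmu-miR-32: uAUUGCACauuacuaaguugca
MiR-32 had deposited counts of 61.33, 35.33 and 21.33 in Apc+/+ mice against 85.33, 23.33 and 86.33 in Apcfl/fl mice, and its normalised counts overlapped. Its log2 fold change was 0.11 (95% confidence interval -1.27 to 1.49, standard error 0.58, edgeR adjusted p = 0.9), an interval wide enough to hold the change of miR-25. Among the other relatives, miR-18b, miR-363 and miR-92b lay under the viral probe limit in all 6 livers, and miR-367 was above it in 1 Apc+/+ liver. MiR-18b and miR-363 come from the X-linked cluster alone, and both were at background.

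Ratios of members within a liver do not depend on the factor by which livers are scaled against each other. If a fixed amount was taken off each probe's counts, the ratios can still vary with depth, most for probes with low counts. That part was not tested. In each liver the mean log2 deposited count of the 3 miR-106b-25 probes was taken minus that of the 4 tested miR-17-92 probes. Read only as differences between livers, these log2 ratios were -0.97, -1.44 and -1.41 in Apc+/+ mice against -0.18, -0.41 and -0.39 in Apcfl/fl mice. All 3 Apcfl/fl livers lay above all 3 Apc+/+ livers, and the group means of -1.27 ± 0.26 and -0.33 ± 0.13 (SD, n = 3 each) differed by 0.95, or 1.93-fold. Without miR-25 the log2 ratios were -1.64, -2.05 and -2.07 against -1.07, -1.28 and -1.03, still without overlap, and the difference was 0.79. With each liver left out in turn the difference between the genotypes was 0.86 to 1.1, and with all 9 probes, those at background included, it was 1.08.

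Of the 12 pairs made of a tested member from each cluster, 10 had ratios without overlap between the genotypes, beside 27.3% of the 15051 pairs of all tested miRNAs. The pairs share members and are not independent. In each of these 10 the miR-106b-25 member was the higher one in Apcfl/fl liver relative to its partner. The largest difference was that of miR-25 over miR-19b, with log2 ratios of 0.35, -0.41 and -0.06 in Apc+/+ mice against 1.84, 1.63 and 1.46 in Apcfl/fl mice, a difference of 1.69 or 3.22-fold. The ratio of miR-25 over mmu-miR-20a was -0.43, -0.84 and -0.68 against 0.79, 0.54 and 0.19, a difference of 1.16. The overlapping pairs were miR-93 with mmu-miR-17 and with miR-19a.

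Within miR-17-92, 3 of 6 pairs did not overlap, beside 27.3% of the pairs of all tested miRNAs, and each of the 3 held miR-19b. The log2 ratio of miR-19a over miR-19b was -0.54, -0.77 and -0.37 in Apc+/+ mice against 0.1, -0.14 and 0.43 in Apcfl/fl mice. The 3 Apcfl/fl livers lay above the 3 Apc+/+ livers, and the difference was 0.69, or 1.61-fold, between a pair of miRNAs that differ at a single base. Probe sequences were not used here, and how far each of these probes also captures the other miRNA was not tested. By contrast, the ratio of mmu-miR-17 over mmu-miR-20a was -1.13, -0.84 and -0.78 against -1.21, -0.83 and -0.77, with group means that differed by -0.02. Those probes, from the same transcript and each with an X-linked partner, kept a near-equal ratio across the genotypes.

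Within miR-106b-25, 1 of 3 pairs did not overlap, near the 27.3% of the pairs of all tested miRNAs. The log2 ratio of miR-25 over miR-93 was 1.99, 2.1 and 1.97 in Apc+/+ mice against 3.19, 2.75 and 2.43 in Apcfl/fl mice. The Apc+/+ livers were nearly alike and every Apcfl/fl liver lay above them, with a difference of 0.77, or 1.7-fold. The ratio of miR-106b over miR-93 overlapped, at -0.07, 0.56 and -0.03 against 1.06, 0.28 and 0.96. The ratio of miR-25 over miR-106b also overlapped, at 2.05, 1.54 and 2 against 2.13, 2.47 and 1.46. These ratios are descriptions without a test, and the share of non-overlapping pairs within each cluster rests on few pairs.

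**Figure D3:**
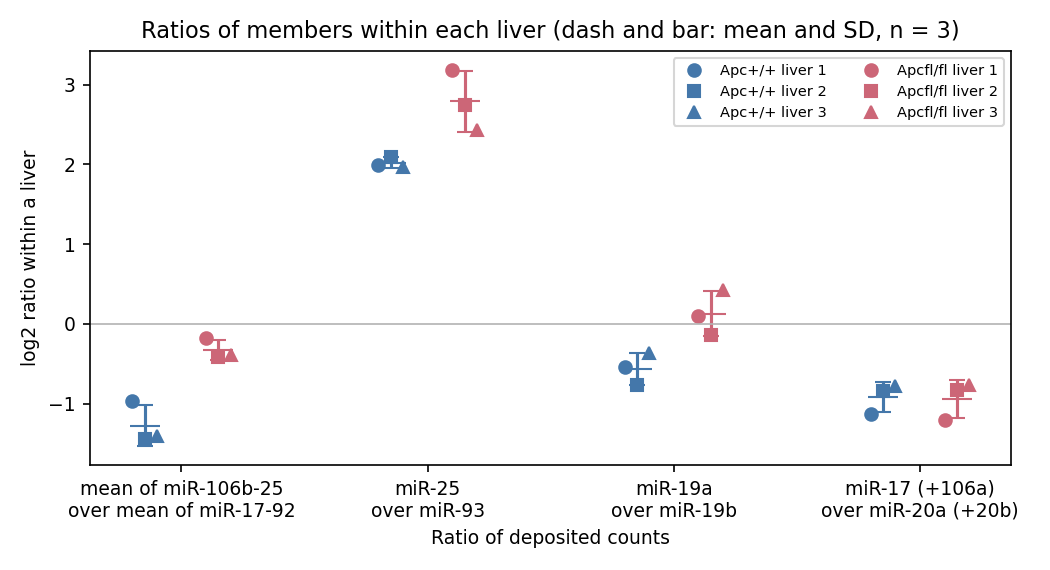
Log2 ratios of deposited counts inside each liver (points, 3 livers per genotype), with the mean and SD of each genotype as dash and bar. The cluster ratio, miR-25 over miR-93 and miR-19a over miR-19b were higher in all 3 Apcfl/fl livers, while mmu-miR-17 over mmu-miR-20a overlapped.

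The Apcfl/fl livers differed among themselves in the miR-106b-25 members. On the log2 scale and relative to the Apc+/+ mean, miR-25 lay at 1.28, 0.95 and 0.77 in the 3 Apcfl/fl livers and miR-106b at 1.01, 0.35 and 1.17, so that the liver lowest for miR-106b was the middle one for miR-25. MiR-93 lay at 0.11, 0.22 and 0.36. The cluster's median per liver was 1.01, 0.35 and 0.77, against 0.04, -0.15 and 0.11 in the Apc+/+ livers. For miR-17-92 the median was -0.31, -0.27 and -0.01 in the Apcfl/fl livers and -0.35, 0.08 and 0.21 in the Apc+/+ livers, which overlapped.

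Markers of cell types differed between the genotypes as well. After TMM scaling the 5 hepatocyte miRNAs were lower in every Apcfl/fl liver than in any Apc+/+ liver, beside 18.4% of all tested miRNAs. Their summed normalised count, most of it miR-122, was 24829.8 to 39774 in Apc+/+ and 8253.9 to 14053.8 in Apcfl/fl liver. In deposited counts miR-122 did not overlap between the genotypes, whereas miR-192, miR-194, miR-101a and miR-802 did. The sum of the 5 mesenchymal miRNAs was 893.9 to 1317.6 against 322.3 to 725.1, and that of the 2 endothelial ones was 3584.6 to 3806.7 against 2763.7 to 3552.3, both without overlap. In the mesenchymal list the normalised counts of miR-145 and miR-143 did not overlap between the genotypes, whereas those of miR-199a-3p, miR-199a-5p and miR-214 did. In the endothelial list miR-126-3p held most of the sum and its normalised counts overlapped, whereas those of miR-126-5p did not. The 6 leucocyte miRNAs overlapped in their sum, 248.2 to 489.4 against 347.8 to 891.6. Of the 5 tested, 1 was higher without overlap between the genotypes, miR-223, beside 14.9% of all tested miRNAs. MiR-223, the myeloid miRNA, had 65.63, 73.65 and 76.15 against 121.4, 155.7 and 301.4 normalised counts. MiR-142-5p stood at the lowest value of 1 in all 6 livers, and miR-155 did so in the 3 Apc+/+ livers and in Apcfl/fl liver 1. In Apcfl/fl livers 2 and 3 miR-155 had deposited counts of 78.33 and 58.33, and it passed the minimum mean count only through these. With the other livers at the lowest value, its fold change and edgeR p-value are not given. The two-sided exact permutation test gave p = 0.4 for miR-155. The 3 erythroid miRNAs overlapped in their sum, 856.4 to 1403.5 against 795.8 to 4561.5, the highest in Apcfl/fl liver 2. The part of the cell make-up in the members' differences was not tested.

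Among the 147 tested miRNAs that were neither members nor relatives nor markers, the profiles nearest to the mean of the 7 tested members over the 6 livers were those of miR-130a, miR-374 and miR-191, with root mean square differences of 0.221, 0.223 and 0.229 on the log2 scale (median of all candidates 0.59). Their log2 fold changes were 0.31, 0.21 and 0.55. That mean joins clusters that differ, and a comparison with the miR-106b-25 members alone was therefore added after the values had been seen. The nearest to them were miR-191 (0.092), miR-15b (0.118) and miR-340-5p (0.132), beside a median of 0.69. MiR-15b had normalised counts of 208.6, 221.4 and 209.2 in Apc+/+ mice against 391.6, 334 and 434.9 in Apcfl/fl mice, and its order of the Apcfl/fl livers was that of miR-106b.

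**Figure D4:**
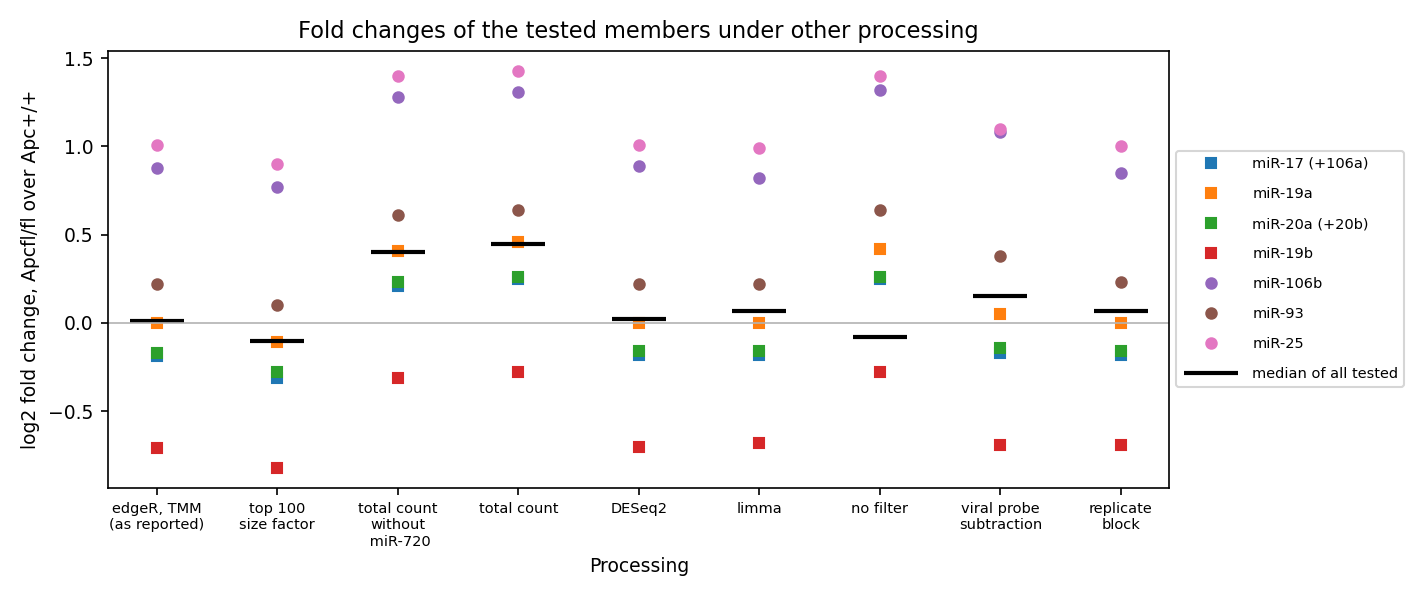
Log2 fold changes of the 7 tested members (circles miR-106b-25, squares miR-17-92) under the reported and 8 other ways of processing, with the median of all tested miRNAs as a black dash; the settings have no order. In each setting shown miR-25 and miR-106b were the highest members and miR-19b the lowest, while the total count, without or with miR-720, and no filter moved all members upwards.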

How the data were processed

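Liver miRNA of 3 Apcfl/fl and 3 Apc+/+ mice was counted on a NanoString panel, and genotype and replicate number came from the sample labels. The authors deposited estimated counts per probe, not scaled between livers. Each probe's values had 1 shared decimal part (584 of 584 probes with at least 2 values above 1), as would be left if a fixed amount had been taken off before deposition. The lowest value was 1. Neither such a subtraction nor a floor is named in the sources used here, and probe sequences were not used here. A count test had been planned. The values were not whole and were rounded after the filter. Columns without a sample numbered 0. Depth was 82942 to 133331 counts per liver.

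Mouse miRNAs averaging 20 or more counts over the 6 livers (174 of 566, 97.3% of the counts) were compared with edgeR 4.0.16 in R 4.3.3 (TMM, quasi-likelihood test, Benjamini-Hochberg adjustment over all 174, no replicate block). The 33 viral probes stayed out of library sizes. Normalised counts are deposited counts divided by the scaled library size, on the scale of the mean library. Single members were also compared with an exact permutation test of normalised log2 values. Same-genotype livers gave a chi-square of 17.2 to 89.1 per degree of freedom, above sampling noise, so that none was treated as 1 library deposited more than once. This does not show that they came from separate animals. The procedure was also run on simulated whole counts with the same dispersion for every miRNA and no floor, a setting unlike the deposited values. No result here rests on that run.

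The text names the 9 members, their passenger strands and seed or cluster relatives, cell type markers, miR-720 and the 3 miRNAs nearest in profile. Members and lists were chosen with earlier results of these data known. Alternatives were DESeq2 1.42.0, limma 3.58.1 (prior count 2 for log values), other size factors and count minimums, subtraction of the mean viral probe count, a replicate block and each liver left out.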

Additional observations from a re-analysis of the deposited data

How the results depend on the processing

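MiR-25 and miR-106b were higher and miR-19b lower in Apcfl/fl liver under each of the 15 alternatives, and miR-93 was higher in each of the 14 that tested it. MiR-25 ranged from 0.86 to 1.43 on the log2 scale, with adjusted p-values of 0.0034 to 0.2 and an adjusted p-value under 0.05 in 6 of 15. It was the member called higher (1 in place of 0) under DESeq2 (adjusted p = 0.0034), total-count scaling, the same scaling after removal of miR-720, a count minimum of 60 and viral probe subtraction. With 1 liver left out 0 to 1 members were called higher, the 1 without Apcfl/fl replicate 3 (adjusted p = 0.049). No member was called lower by edgeR, DESeq2 or limma in any of these. Members higher at an unadjusted p-value under 0.05 numbered 1 with the top 100 size factor, and 1 to 2 with 1 liver left out. Members lower at that threshold numbered 0 with the total count, also after removal of miR-720, with no filter and the count minimum of 60, and 0 to 1 with 1 liver left out. No share of all tested miRNAs at that threshold is given for these settings, so nothing particular to the members is read from these counts.

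Of all miRNAs tested, DESeq2 called 20 higher and 9 lower, and limma called 0 higher and 0 lower. The size factor from the top 100 miRNAs gave 1 and 6, and total-count scaling 16 and 1. The same scaling after removal of miR-720 gave 18 and 3, with 174 miRNAs tested in each of these fits. Fewer miRNAs were tested with the count minimum of 60 (12 and 6 of 101) and with viral probe subtraction (12 and 7 of 140). More were tested with no filter (0 and 0 of 566). With 1 liver left out 0 to 11 were higher and 0 to 8 lower, both most without Apcfl/fl replicate 3, where 168 were tested. The median of the members was 0.46 with the total count and 0.41 after removal of miR-720, where the median of all tested miRNAs was 0.45 and 0.4. It was 0.26 with no filter, or 0.34 above that of all tested miRNAs. With 1 liver left out it was -0.16 to 0.26, and -0.15 to 0.22 relative to all tested miRNAs. MiR-17 with miR-106a turned positive with the total count (0.25), after removal of miR-720 (0.21), with no filter (0.25) and without Apc+/+ replicate 3 (0.03), in a range of -0.34 to 0.03 with 1 liver left out. MiR-20a with miR-20b did so at 0.26, 0.23 and 0.26. The cluster ratio within livers, a difference of 0.95, was 1.07 with viral probe subtraction. Beyond the shift of the median, the causes were not tested.

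The deviations of same-numbered livers correlated at -0.1, -0.1 and 0.15. With no other pairs compared, these values cannot decide whether the replicate numbers pair the livers. Under the replicate block 4 of the 174 tested miRNAs were called higher and 3 lower, 0 of them members. At an unadjusted p-value under 0.05 members numbered 1 higher and 0 lower, also given without the share of all tested miRNAs. The block gave log2 fold changes of 1 for miR-25, 0.85 for miR-106b and -0.69 for miR-19b. Counts under the viral probe limit leave miR-18a and miR-92a without a fold change, and the low counts of miR-93 and miR-106b limit their precision.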
